A study of Mus musculus with 15 samples.

Results

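The genes described are the 7 that make, package, take back and break down dopamine: Th, Ddc, Gch1, Slc18a2, Slc6a3, Maoa and Maob. They were found by symbol among the 35976 genes of the deposited count table, and each symbol matched 1 row. RNA was read from nuclei of the ventral tegmental area, a midbrain region rich in dopamine neurons, in male mice aged 8 to 12 weeks that were heterozygous for a Cre knock-in at the Slc6a3 locus (DAT-Cre). Every group carried this allele and a Cre-dependent virus (AAV5-DIO-KASH-HA), injected 14 days before training, which places an HA tag on the nuclear envelope of Cre-expressing cells. Nuclei were sorted by that tag into HA-positive (dopaminergic, DA) and HA-negative (non-dopaminergic, nDA) nuclei, and each sample pooled tissue from 2 mice.

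All mice were trained over 7 days to work for food rewards. The food-trained groups (FT; 4 DA and 4 nDA libraries) were taken after the last food session. The maintenance group (MN; 3 DA libraries) was taken after 5 days of intravenous cocaine self-administration at an infusion dose of 0.3 mg/kg and 10 further days at 1.0 mg/kg, 1 hour a day. The abstinence group (CRV; 4 DA libraries) had the same cocaine schedule followed by 21 days in the home cage without cocaine. No drug-free group of the same age as the cocaine groups is analysed here, so cocaine, age, catheter surgery and time since food training cannot be told apart between stages. Because the tag depends on Cre made from the Slc6a3 locus, the level of Slc6a3 in HA-positive nuclei is a check of the sort, not an independent finding, and 1 Slc6a3 allele carries the Cre insertion in every library.

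Dopamine is made from tyrosine in a pair of steps. Tyrosine hydroxylase (Th) makes L-DOPA with tetrahydrobiopterin as cofactor, and aromatic L-amino acid decarboxylase (Ddc) turns L-DOPA into dopamine; GTP cyclohydrolase (Gch1) starts the synthesis of tetrahydrobiopterin. The vesicular monoamine transporter (Slc18a2, VMAT2) loads dopamine into vesicles, and the dopamine transporter (Slc6a3, DAT), the main site at which cocaine blocks reuptake, returns released dopamine to the cell. Monoamine oxidases A and B (Maoa, Maob) oxidise cytosolic dopamine, and in brain Maob is best known from astrocytes and serotonin neurons.

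The promoters of 2 of these genes share a written motif, and these are shown with the Ddc promoter, which holds another; Gch1 and Slc6a3, also higher in DA nuclei, held none of the 3 motifs searched. RefSeq windows from 250 bases before to 50 after the start (build GRCm38.p6) were found for 6 of the 7 genes, as 7 windows, since Ddc has 2 starts. Maob was not matched. Starts are numbered by position on the chromosome. Ddc is on the minus strand, so its second start is the upstream one, at the gene's outer end (11898144). Which Ddc start is used in these nuclei was not tested. The cAMP response element TGACGTCA, which reads the same on both strands, occurs in the windows of Th and Slc18a2, against 1.79% of 32851 RefSeq windows of the same length. The Nurr1-type element AAAGGTCA, searched on both strands, occurs at the second start of Ddc, as its reverse complement, against 1.51% of windows. The Pitx-type motif TAATCC was in none of the 7 windows and in 7.06% of all windows. A match is a string of letters and was not shown here to be a bound site. Capitals mark the match in each sequence, written 5′ to 3′ on the gene's strand; the Th stretch (chr7:142900015-142900245, minus strand, ending 20 bases before the start), the Ddc stretch (chr11:11898145-11898394, minus strand, before the second start) and the Slc18a2 stretch (chr19:59260863-59260892, plus strand, across the start) read:
Th: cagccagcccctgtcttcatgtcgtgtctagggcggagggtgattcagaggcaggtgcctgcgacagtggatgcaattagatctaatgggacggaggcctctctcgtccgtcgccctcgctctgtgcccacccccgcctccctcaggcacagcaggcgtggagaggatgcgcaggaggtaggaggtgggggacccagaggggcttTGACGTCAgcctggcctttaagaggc
Ddc: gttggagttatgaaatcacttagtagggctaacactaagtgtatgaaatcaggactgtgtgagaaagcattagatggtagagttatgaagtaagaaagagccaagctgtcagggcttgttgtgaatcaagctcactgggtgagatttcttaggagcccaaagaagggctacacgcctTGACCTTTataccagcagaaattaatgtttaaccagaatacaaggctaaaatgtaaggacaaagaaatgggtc
Slc18a2: agcgctgtccgTGACGTCAgagccggactg

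The motif lies from base -45 to -38 in Th, counted from the RefSeq start, from -4 to 4 in Slc18a2 and from -73 to -66 in Ddc. The Th and Ddc stretches hold no exon of the GENCODE M21 annotation. In RefSeq on GRCm38.p6, Th lies on chromosome 7 (142892779 to 142899995), Ddc on 11 (11814101 to 11898144), Gch1 on 14 (47153895 to 47189413), Slc18a2 on 19 (59260878 to 59296012) and Slc6a3 on 13 (73536128 to 73578672). Maoa (16619698 to 16687812) and Maob (16709281 to 16817366) are neighbours on the X chromosome, present in 1 copy in these males. Exons of 6 of the genes overlap no other GENCODE gene; those of Slc18a2 share 111 bases, 2.12% of its exon length, with Gm29261 on the opposite strand.

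Library totals ran from 25813697 counts (FT DA replicate 3) to 59046618 (CRV replicate 2), and 14841 to 19750 genes were detected in DA libraries against 22733 to 23886 in nDA libraries. The fewest counts of any of the 7 genes in 1 library were 173 (Gch1, nDA replicate 3). Without molecular identifiers a read count does not give the number of RNA molecules, so the distance from the limit of detection was not tested. Values are CPM (counts relative to the library total) scaled by TMM, a normalisation on the bulk of genes. Of 9 dopamine neuron markers, 7 were higher in DA nuclei by the test described next, and the summed level of the 9 was 1962 to 3722 CPM in FT DA against 119 to 158 CPM in nDA libraries. Markers of noradrenergic neurons, which also make Th, Ddc, Gch1 and Slc18a2, were at 0 in all FT and MN DA libraries for Dbh and Slc6a2; among the CRV libraries both were highest in replicate 3, where their sum was 11.9 CPM, most of it Dbh (10.7 CPM). Summed serotonergic markers (Tph2, Slc6a4, Fev) ranged from 27.8 to 41.3 CPM in FT DA, 24.9 to 75.1 in MN, 1.60 to 66.5 in CRV and 10.7 to 31.7 in nDA libraries. Their part in the levels below was not tested.

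The first comparison asks which of these genes separate DA from nDA nuclei in food-trained mice. Synthesis, packaging and reuptake genes were all higher in DA nuclei, from 6.91-fold for Ddc to 32.9-fold for Slc6a3 as ratios of mean CPM, whereas the oxidases Maoa and Maob differed by 1.95-fold and 1.27-fold and did not pass the test. By edgeR's quasi-likelihood F-test, with Benjamini-Hochberg adjustment over 19786 genes, 5 of the 7 genes passed 0.05, all higher in DA nuclei, where 12.8% of all genes passed (3.63% as higher in DA). The median log2 fold change was 3.14 over the 7 genes and -0.21 over all genes tested. In bulk nuclei a lower level can mean fewer cells of a type or less RNA per cell, and these cannot be told apart.

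Th, the rate-limiting enzyme of dopamine synthesis, was at 676, 567, 1381 and 923 CPM in FT DA replicates 1 to 4. The nDA libraries held 40.8, 37.3, 39.9 and 29.2 CPM. Every DA library was thus far above every nDA library, with replicate 3, the smallest library, the highest. The log2 fold change was 4.57 (SE 0.33, 95% interval 3.81 to 5.32, edgeR adjusted p = 0.0007), the seventh lowest p among all genes.

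Ddc was at 168, 101, 304 and 327 CPM in FT DA nuclei and at 30.7, 43.6, 29.6 and 26.3 CPM in nDA nuclei. The groups did not overlap, and DA replicate 2 was the lowest of its group. Its log2 fold change was 2.77 (SE 0.39, 95% interval 1.89 to 3.65, edgeR adjusted p = 0.0067).

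Gch1, the low-level member of the synthesis group, was at 24.3, 61.9, 14.2 and 45.5 CPM in FT DA nuclei. In nDA nuclei it was at 3.73, 4.45, 3.92 and 4.15 CPM. The nDA values were tight and the DA values spread by 4.37 times, with no overlap. The log2 fold change was 3.14 (SE 0.50, 95% interval 2.01 to 4.27, edgeR adjusted p = 0.0067).

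Slc18a2 was at 1595, 2805, 2009 and 3090 CPM in FT DA nuclei against 132, 198, 104 and 134 CPM in nDA nuclei. The separation was complete, and the log2 fold change was 4.04 (SE 0.33, 95% interval 3.30 to 4.78, edgeR adjusted p = 0.000733). Slc6a3 was at 2291, 2960, 2305 and 4484 CPM in DA nuclei and at 86.3, 119, 76.8 and 83.7 CPM in nDA nuclei. It had the third lowest p of all genes (log2 fold change 5.02, SE 0.34, 95% interval 4.26 to 5.78, edgeR adjusted p = 0.000624), which for this gene describes the sort.

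Maoa, which prefers serotonin and noradrenaline as substrates but also oxidises dopamine, was at 46.8, 44.5, 79.6 and 45.9 CPM in FT DA nuclei and at 27.4, 36.8, 26.02 and 20.9 CPM in nDA nuclei. All DA libraries lay above all nDA libraries, as did those of 6.87% of tested genes, but the difference missed the threshold (log2 fold change 0.94, SE 0.28, 95% interval 0.30 to 1.58, edgeR adjusted p = 0.0651). It passed with DESeq2 (adjusted p = 0.0121) and with limma-voom (adjusted p = 0.0489), which made 6 of 7 genes called by each of these tools, where they called 20.5% and 21.6% of all genes. Maob was at 10.2, 31.9, 34.1 and 11.5 CPM in DA nuclei and at 19.9, 24.9, 11.8 and 12.3 CPM in nDA nuclei. The ranges overlapped fully, and the interval of its log2 fold change ran from -0.82 to 1.47 around 0.32 (edgeR adjusted p = 0.777). Summed astrocyte markers were at 741 to 939 CPM in FT DA and 1431 to 3016 CPM in nDA libraries; their part in the Maob level was not tested.

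**Figure D1:**
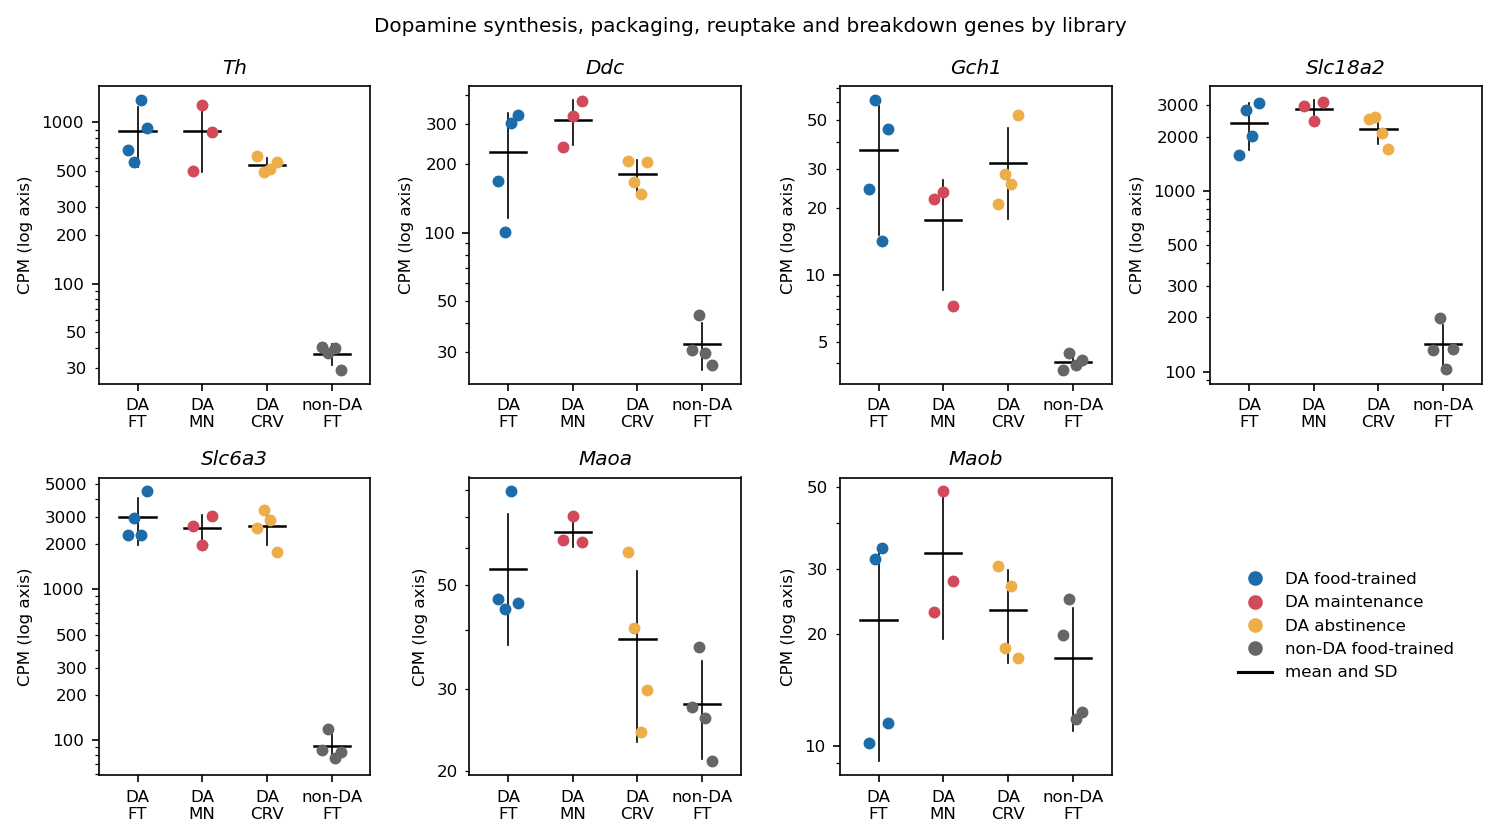
Level of each gene in every library, in CPM on a log axis, by group; points are libraries in replicate order, horizontal bars arithmetic means and vertical bars 1 SD. Th, Ddc, Gch1, Slc18a2 and Slc6a3 are higher in every DA library than in every nDA library, by the narrowest margin for Gch1 in MN replicate 3, Maob overlaps, and the 3 DA stages overlap for all genes except Ddc and Maoa between MN and CRV.

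The genes differed in how much signal the nDA nuclei kept. The nDA mean was 3.04% of the FT DA mean for Slc6a3, 4.15% for Th and 5.98% for Slc18a2. It was 11.1% for Gch1 and 14.5% for Ddc, and was 51.3% for Maoa and 78.6% for Maob. Over the 9 dopamine neuron markers it ran from 3.49% for Chrna6, a nicotinic receptor subunit, to 16.1% for Nr4a2 and 32.7% for Foxa1, both transcription factors, with Slc6a3 below this range and Th, Slc18a2, Gch1 and Ddc within it. Ddc and Th are successive enzymes of 1 pathway. The log2 ratio of Ddc to Th within a library was -2.003, -2.49, -2.18 and -1.497 in FT DA nuclei and -0.41, 0.22, -0.43 and -0.15 in nDA nuclei. All nDA ratios were higher. The mean ratio was -2.04 ± 0.42 (SD, n = 4) in DA and -0.19 ± 0.30 (SD, n = 4) in nDA nuclei, and the difference of -1.85 had an exact two-sided permutation p of 0.0286, the smallest that 4 libraries against 4 allow; adjusted over the 16 ratio tests it was 0.457. The ratios of Slc6a3 and Slc18a2 to Th overlapped between populations, with differences of 0.50 (exact p = 0.314) and -0.45 (exact p = 0.343) and adjusted p = 0.594 for both.

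Per kilobase of the longest transcript, the levels of the 7 genes were spread widely in FT DA nuclei. Slc6a3 was at 871 ± 298 CPM per kb, Slc18a2 at 541 ± 158 and Th at 455 ± 185 (SD, n = 4), and neighbours in this order overlapped. These levels put them above 99.6% of the 16831 genes detected with a known length. Ddc followed at 111 ± 53.8 CPM per kb, below every Th value and above 97.9% of genes. The lowest levels were those of Maoa (13.0 ± 4.07), Gch1 (10.4 ± 6.09) and Maob (9.09 ± 5.34 CPM per kb), which overlapped one another at percentiles 72.3, 66.9 and 63.5. By this length the gene that starts cofactor synthesis was read at a level near that of the oxidases, about 2.3% of the level of Th. By the summed length of all its exons, Gch1 was at 5.83 CPM per kb (2.27 to 9.90). On that scale it lay below every Maoa value (10.7 to 19.1) and overlapped Maob.

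In the nDA nuclei the same scale gave another order. Slc18a2 was at 32.3 ± 9.04, Slc6a3 at 26.5 ± 5.48, Th at 18.9 ± 2.71 and Ddc at 16.1 ± 3.77 CPM per kb, of which Slc18a2 and Slc6a3 overlapped, as did Th and Ddc. Maob (7.15 ± 2.62) and Maoa (6.67 ± 1.59) were next and overlapped. Gch1 was lowest at 1.16 ± 0.0890 CPM per kb, below every Maoa value. With the summed exon length in place of the longest transcript, the order changed only among Maoa, Maob and Gch1, but levels and overlaps moved. The mean of Ddc was then 50.4 CPM per kb in FT DA and 7.30 in nDA nuclei. In nDA nuclei Th (12.4 to 17.3) lay above every Ddc value (5.91 to 9.78), and Ddc overlapped Maoa and Maob. In FT DA nuclei Slc6a3 (663 to 1298) lay above every Slc18a2 value (305 to 591).

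Within the DA stages, the question is whether the dopamine genes differed after cocaine maintenance and after abstinence. None of the 7 genes passed the threshold in any of the 3 pairwise comparisons or in the test for any difference among stages, by edgeR's quasi-likelihood F-test adjusted over 19060 genes, nor with DESeq2 or limma-voom. By edgeR few genes passed at all: 0.131% from FT to MN, 0% from FT to CRV, 0.178% from MN to CRV and 0.0839% for any stage. DESeq2 called 4.81%, 0.672%, 3.94% and 2.35% of the genes it tested in the same order, and limma-voom 0.0472%, 0%, 0.157% and 0.063%. At an unadjusted p under 0.05 edgeR had 0, 1 and 2 of the 7 genes in the pairwise comparisons and 0 for any stage, against 11.6%, 4.3%, 9.92% and 7.85% of all genes. DESeq2 had 0, 1, 3 and 1 of the 7, against 14.1%, 5.12%, 12.6% and 9.71% of all genes. Limma-voom had 1, 1, 3 and 2, against 9.77%, 5.87%, 12.7% and 9.77%. The comparisons share libraries and are not independent.

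The maintenance libraries stand apart by a technical measure, the slope of expression on a gene's GC content: -0.0379 to -0.0225 log2 units per percent GC, against -0.0165 to 0.0205 in the other DA libraries. Among the nDA libraries, replicate 2 alone had such a slope (-0.0247). Most of this split cannot be told apart from the maintenance stage. Summed markers of oligodendrocytes, the myelinating glia, were at 993 to 1601 CPM in MN against 1662 to 2620 in FT and 1077 to 1949 in CRV libraries. Of the 6 markers 1 passed, Olig1, lower in MN than in FT (edgeR adjusted p = 0.0103) and CRV (0.00955), at 0 to 0.206 CPM in MN and 16.7 to 51.6 CPM in the other DA libraries. The part of these in the stage changes was not tested. A fit of all 15 libraries with a term for these 4 rests on that 1 nDA library.

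Th was at 497, 1285 and 873 CPM in the 3 MN libraries and at 619, 492, 509 and 566 CPM in the 4 CRV libraries. The 2 highest Th values of all DA libraries, FT replicate 3 and MN replicate 2, came from the 2 smallest DA libraries, and the CRV values were tightly grouped. The means were 887 ± 361 (FT, n = 4), 885 ± 394 (MN, n = 3) and 546 ± 57.7 CPM (CRV, n = 4; SD). From FT to MN the log2 fold change was -0.00 (95% interval -0.75 to 0.74). From FT to CRV it was -0.70 (SE 0.32, 95% interval -1.40 to -0.00; edgeR unadjusted p = 0.0495, adjusted p = 1.00), and without FT replicate 3 it was -0.40. From MN to CRV it was -0.69 (95% interval -1.44 to 0.05, edgeR adjusted p = 0.530), and -0.32 without the 2 smallest libraries. The FT and CRV ranges overlapped.

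Ddc was at 238, 323 and 378 CPM in MN and at 205, 166, 148 and 204 CPM in CRV libraries. All CRV libraries lay below all MN libraries, as did those of 4.57% of tested genes, while the FT libraries overlapped both groups. The log2 fold change from MN to CRV was -0.79 (SE 0.35, 95% interval -1.56 to -0.03; edgeR unadjusted p = 0.0425, adjusted p = 0.492), and -0.20 with the term for the GC-shifted libraries. From FT the changes were 0.48 to MN and -0.32 to CRV. With 1 library left out they ran from 0.21 to 0.71 and from -0.57 to -0.08.

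Gch1 was at 22.1, 23.6 and 7.22 CPM in MN and at 20.9, 28.5, 25.7 and 52.5 CPM in CRV libraries. MN replicate 3 was the lowest of the 11 DA libraries and FT replicate 2 the highest, and all 3 stages overlapped. The FT-to-MN estimate of -1.05 was the largest of the 7 genes in that comparison, with an SE of 0.57 and a 95% interval of -2.28 to 0.18 (edgeR adjusted p = 0.511). It was -0.67 without MN replicate 3, -0.69 without FT replicate 2 and -1.603 without the 2 smallest DA libraries, and passed in none of these fits (edgeR adjusted p = 0.782, 0.768 and 0.337). From FT to CRV it was -0.19 and from MN to CRV 0.86 (95% interval -0.37 to 2.08).

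The transporters varied least over the 11 DA libraries, with a coefficient of variation of 21.997% for Slc18a2 and 27.1% for Slc6a3 against 33.0% to 56.1% for the other genes. Slc18a2 was at 2973, 2430 and 3133 CPM in MN and at 2500, 2570, 2103 and 1704 CPM in CRV libraries, within or close to the FT range. Its log2 fold changes were 0.26 (FT to MN, 95% interval -0.35 to 0.87), -0.10 (FT to CRV, -0.67 to 0.47) and -0.36 (MN to CRV, -0.97 to 0.25). Slc6a3, the target of cocaine, was at 2647, 1965 and 3076 CPM in MN and at 2549, 3334, 2869 and 1777 CPM in CRV libraries. Its ranges overlapped at every stage. Its log2 fold changes were -0.23 (FT to MN, -0.92 to 0.46), -0.20 (FT to CRV, -0.83 to 0.44) and 0.03 (MN to CRV, -0.65 to 0.72), so these intervals exclude a doubling in either direction. The intervals of Slc18a2 do as well. These bounds come from the spread between libraries in edgeR's fit; with the term for the GC-shifted libraries the FT-to-MN estimates were -0.42 for Slc18a2 and -0.77 for Slc6a3, and the MN-to-CRV estimates 0.32 and 0.57.

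Maoa was at 62.6, 70.3 and 61.9 CPM in MN and at 58.8, 40.4, 24.2 and 29.8 CPM in CRV libraries. As with Ddc, the CRV values all lay below the MN values. The log2 fold change from MN to CRV was -0.76 (SE 0.34, 95% interval -1.495 to -0.03; edgeR unadjusted p = 0.0418, adjusted p = 0.492), and -0.19 with the term for the GC-shifted libraries. Maoa has the lowest GC content of the 7 transcripts, at 40.4%, and Th the highest, at 54.1%. Ddc, at 48.9%, moved from -0.79 to -0.20 with the same term. The part of GC content in these changes was not tested. From FT, Maoa changed by 0.26 to MN and -0.50 to CRV, with overlap. Maob was at 23.0, 48.8 and 27.8 CPM in MN and at 30.5, 18.3, 27.1 and 17.3 CPM in CRV libraries. Its 3 log2 fold changes were 0.60, 0.09 and -0.51 for FT to MN, FT to CRV and MN to CRV, none larger than 1.2 times its SE, and the stages overlapped. Limma-voom gave 1.14 from FT to MN (adjusted p = 0.470) and 0.67 from FT to CRV (adjusted p = 0.894).

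**Figure D2:**
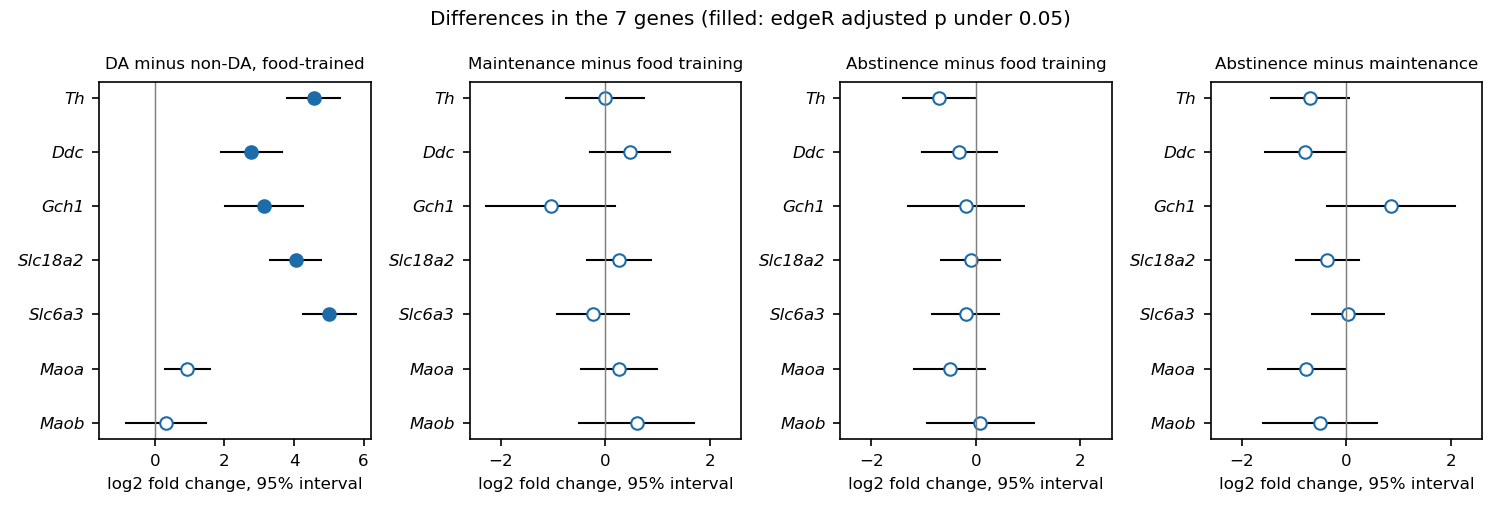
Log2 fold changes of the 7 genes (points) with 95% intervals (bars) from edgeR, for DA minus nDA nuclei and for the 3 comparisons of DA stages; filled points passed an adjusted p of 0.05. Filled points appear in the first panel alone, for 5 genes, while in the other panels most intervals span 0.

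The within-library ratios gave no stage difference past the threshold either: over 4 ratios in 3 stage comparisons the smallest exact permutation p was 0.114, for Ddc against Th from FT to MN (difference 0.62) and from FT to CRV (0.44), with adjusted p = 0.571 over 16 tests. With 4 libraries against 3 no exact p can fall below 0.0571. The ratio of Slc6a3 to Th was lowest in FT replicate 3 (0.74) and MN replicate 2 (0.61), where Th was highest, and lay between 1.65 and 2.76 in the other 9 DA libraries.

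Across the 11 DA libraries the correlation of log2 CPM between 2 of the genes ran from r = -0.59 (Ddc and Gch1) to 0.71 (Th and Ddc). Of 21 pairs, the pair with the highest rank correlation was Slc18a2 and Slc6a3 (Pearson r = 0.68, permutation p = 0.0200, adjusted 0.183; Spearman rho = 0.78, permutation p = 0.00644, adjusted 0.106). It was 0.55 without the 2 libraries farthest in Slc18a2 and 0.86 on deviations from the stage means. For Th and Ddc the values were close (r = 0.71, permutation p = 0.0136, adjusted 0.183; rho = 0.65, adjusted 0.165; r = 0.69 without the 2 farthest and 0.75 on deviations from stage means). For Th and Slc6a3 r was -0.14 (permutation p = 0.684, adjusted 0.898; rho = -0.21, adjusted 0.875), and it turned to 0.43 without the 2 libraries farthest in Th. Gch1, the partner of Th through its cofactor, had r = -0.38 with Th (adjusted permutation p = 0.625) and r = -0.54 with Maoa (adjusted permutation p = 0.290; rho = -0.75, adjusted 0.106). No pair passed 0.05 after adjustment.

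**Figure D3:**
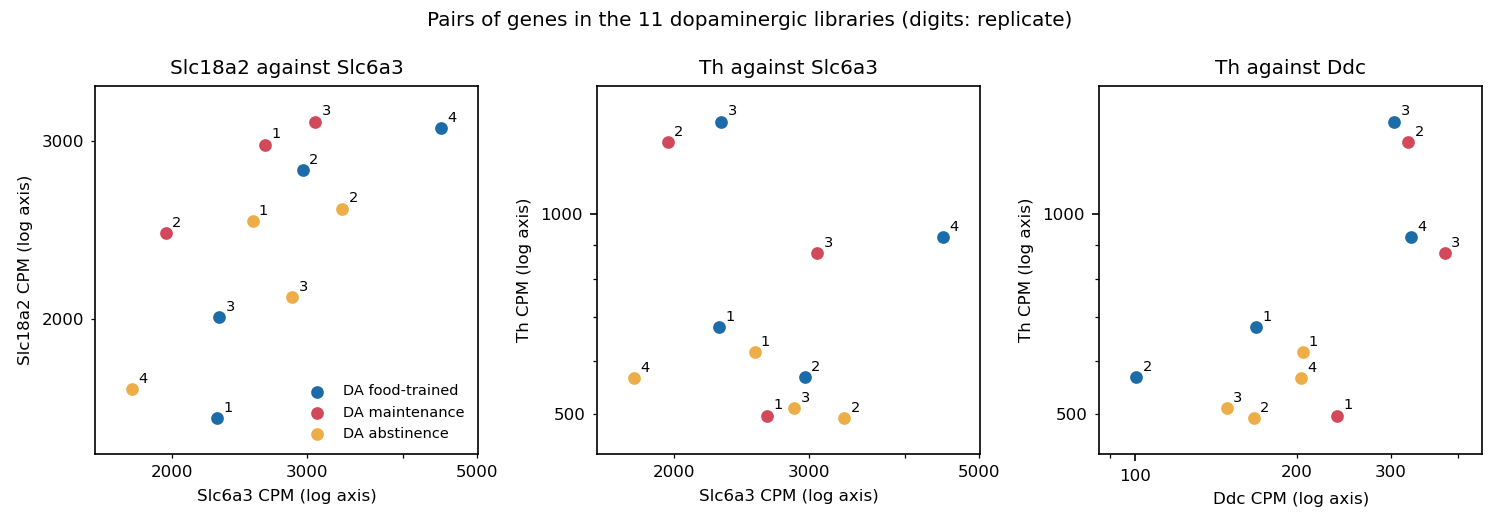
CPM of pairs of genes in the 11 DA libraries on log axes, coloured by stage, with the replicate number beside each point. Libraries with more Slc6a3 tended to have more Slc18a2 (r = 0.68) and those with more Ddc more Th (r = 0.71), neither past 0.05 after adjustment; in the middle panel FT replicate 3 and MN replicate 2 have the highest Th at low Slc6a3.

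All 15 libraries hold 2 populations whose difference can carry much of a correlation, and its share was not tested. Over these libraries, the profile most like each gene was sought among 12998 genes. For Slc18a2 it was Chrna6, a nicotinic receptor subunit (r = 0.998), and then Chrnb3 (0.996). For Slc6a3 it was Slc10a4, a vesicular orphan transporter (0.996), and then Chrna6 (0.994). For Th it was Drd2, the dopamine autoreceptor (0.982), followed by Epha5 (0.981) and Scn9a (0.978). Ddc was most like Lix1 and Gng3 (both 0.968), and Gch1 most like Tm7sf2 (0.955). The oxidases had weaker matches, Snhg7 for Maoa (0.885) and Mapre1 for Maob (0.786). These are descriptions over shared libraries, with no test.

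Of 35 other genes of the pathway, 28 could be tested between populations and 7 passed, 6 higher and 1 lower in DA nuclei, a share to read against the 12.8% of all genes. Their median log2 fold change was 0.45. The count was 10 with DESeq2, 8 with limma-voom and 5 to 9 in the other fits, and the calls of Syngr3, Slc18a1 and Slc22a2 depended on the fit. Of the cofactor enzymes, 0 of 9 passed (3 at an unadjusted p under 0.05 by edgeR, against 24.3% of all genes; Pcbd1 was called by limma-voom, Pcbd1 and Qdpr by DESeq2). Spr and Pts, the other steps from GTP to tetrahydrobiopterin, had log2 fold changes of 0.98 (SE 0.45, edgeR adjusted p = 0.230) and 0.37 (SE 0.45, edgeR adjusted p = 0.701). Qdpr, which regenerates the cofactor, was at -0.67 (edgeR adjusted p = 0.102), and Gchfr, the feedback regulator of Gch1, was at 0 to 1.37 CPM in all 8 libraries.

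Among 9 transport genes tested, 4 passed as higher in DA nuclei, against 3.63% of all genes. Sv2c, a synaptic vesicle protein, was higher in DA nuclei (log2 fold change 3.49, SE 0.52, edgeR adjusted p = 0.0067), with 90.7 to 482 CPM in DA and 18.6 to 35.1 CPM in nDA libraries. Slc18a1, the vesicular monoamine transporter best known from endocrine cells and the paralog of Slc18a2, rose by 2.89 (SE 0.67, edgeR adjusted p = 0.0203). It was at 20.1, 22.3, 3.86 and 21.1 CPM in DA and at 1.74 to 2.97 CPM in nDA libraries, a level 0.71% of that of Slc18a2 in DA nuclei by CPM. Slc7a5, which carries the dopamine precursors tyrosine and L-DOPA, rose by 1.67 (SE 0.24, edgeR adjusted p = 0.0067), and Syngr3, a vesicle protein reported to bind DAT, by 1.22 (SE 0.31, edgeR adjusted p = 0.0301). Leaving out any nDA library, or DA replicate 1 or 4, ended the call of Syngr3 (adjusted p = 0.0501 to 0.0796). Leaving out nDA replicate 1, 2 or 4 ended that of Slc18a1 (adjusted p = 0.0557 to 0.0689), as did the replicate block (adjusted p = 0.162). Slc22a2, an organic cation transporter, was lower (edgeR adjusted p = 0.0114): no count was seen in the 4 FT DA libraries against 0.527 to 3.53 CPM in nDA libraries. A floor of 3 counts in each DA library lies 18.3-fold under the nDA mean of 1.44 CPM. The nDA median was lower, at 0.845 CPM, so the bound depends on the highest nDA library. In CRV libraries Slc22a2 reached 1.51 CPM. Slc22a2 did not pass with all 15 libraries in the fit (adjusted p = 0.0805) or with the replicate block (adjusted p = 0.179). The serotonin transporter Slc6a4 was at 27.6 CPM on average in DA and 13.0 in nDA nuclei and did not pass by edgeR (log2 fold change 1.06, adjusted p = 0.102) but passed with DESeq2 (1.09, adjusted p = 0.0180).

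Of 8 breakdown genes other than the oxidases, 2 passed as higher in DA nuclei, against 3.63% of all genes. By sign 4 were higher and 4 lower, with a median log2 fold change of 0.054. Aldh1a1, an aldehyde dehydrogenase that acts on the aldehyde left by monoamine oxidase and marks a subset of dopamine neurons, rose by 1.34 (SE 0.24, edgeR adjusted p = 0.0067). Akr1a1, an aldehyde reductase, rose by 1.16 (SE 0.18, edgeR adjusted p = 0.0067). Of the other monoamine enzymes only Tph2 and Hdc could be tested and neither passed.

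**Figure D4:**
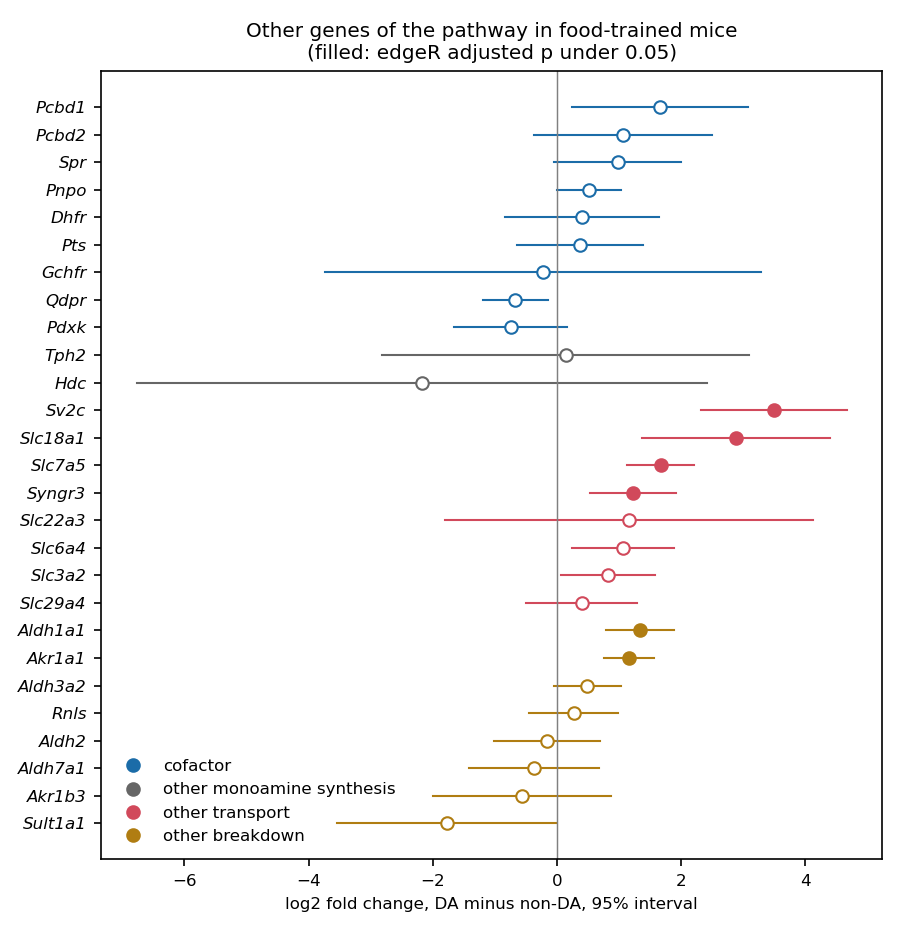
Log2 fold changes (points) with 95% intervals (bars) of 27 other pathway genes between DA and nDA nuclei of food-trained mice, coloured by list; filled points passed an edgeR adjusted p of 0.05. Filled points to the right are 4 transport and 2 breakdown genes. Slc22a2, with no count in FT DA libraries, is not drawn.

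Between stages, 0 of the 27 pathway genes tested passed by edgeR (3, 1 and 4 at an unadjusted p under 0.05 from FT to MN, FT to CRV and MN to CRV, against 11.6%, 4.3% and 9.92% of all genes) and 0 by limma-voom. DESeq2, which called 4.81% of all genes from FT to MN and 3.94% from MN to CRV, called Hdc in both. Hdc had no count in the MN libraries, but none either in FT replicates 1 and 3 or CRV replicates 1 and 2; its counts were 291 and 3 in FT replicates 2 and 4 and 219 and 33 in CRV replicates 3 and 4. DESeq2 also called Slc29a4, a plasma membrane monoamine transporter, from MN to CRV (log2 fold change 1.59, adjusted p = 0.0272); both are named after their values were seen. Slc29a4 was at 22.2, 17.9 and 10.97 CPM in MN and at 35.9, 77.5, 74.8 and 21.3 CPM in CRV libraries, which overlap.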

How the data were processed

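Per the labels' protocols, libraries were made from RNA of sorted nuclei with a low-input kit, without molecular identifiers. The authors deposited whole-number counts per gene for 15 libraries; a second table named as normalized held identical counts (0 of its cells differed, in 10 columns) for the DA libraries other than FT replicate 3, and was not used. Per the submitters' processing notes, Trim Galore 0.6.7, cutadapt 1.18, STAR 2.7.10a, StringTie 2.1.5 and DESeq2 1.38.3 were used with mm10/GRCm38; their roles, the annotation and the use of strand are not given in the sources used here. The values were taken as read counts; StringTie output can also be turned into counts estimated from coverage, in which case counts, totals and the floor of 3 counts would be estimates. Unstranded counting would mix a gene with its antisense partner.

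Counts were analysed with R 4.3.3, edgeR 4.0.16 (filterByExpr, TMM, quasi-likelihood F-test, two-sided, threshold 0.05), limma 3.58.1 (voom with sample quality weights) and DESeq2 1.42.0, and with Python 3.11.15 and scipy 1.17.1. Populations were compared in the 8 food-trained libraries and stages in one fit of 11 DA libraries. Ratios are differences of log2(CPM + 0.5). Correlations used 100000 permutations. Lengths and GC content came from GENCODE M21, gene positions and promoters from RefSeq. Profiles were compared by Pearson's r of log2 CPM among genes with a mean of at least 5 CPM. The labels name each library as a sample of 2 pooled mice, and whether same-numbered DA and nDA libraries share mice was not tested. The scripts were tested on simulated data.

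The members and lists were chosen with earlier results of these data known, so counts over them describe the genes and are not independent evidence. All 7 genes are named in each comparison; of the 35 other pathway genes, those past the threshold and those that bear on a step of the pathway are named. Alternatives were other scaling, no filter, DESeq2, limma-voom, a replicate block, other sets of libraries, a GC correction, a term for GC-shifted libraries, each library left out, another pseudocount and, chosen after seeing the data, leaving out the 2 libraries with fewer than 35000000 counts. A further 2 genes of the pathway and marker lists are not reported here and stay out of the lists' counts.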

Additional observations from a re-analysis of the deposited data

Results flagged for a closer look

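Maoa in FT DA replicate 3, at 79.6 CPM, was far from the other 3 FT DA libraries, which lay between 44.5 and 46.8 CPM; the gap was 0.934 of the group's range. In all, 33 groups of values were examined in this way, and chance gives about 1 such flag in 20 groups. The same library was the smallest, and had the highest Th and the lowest Gch1 of its group. Without it the log2 fold change of Maoa between DA and nDA nuclei was 0.72 (edgeR adjusted p = 0.0784) in place of 0.94.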

How the results depend on the processing

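The 5 genes called between populations stayed called, and higher in DA nuclei, in all 14 other fits, and no stage difference of the 7 genes was called in any. Counts of all genes called moved more. Between populations 2534 genes became 3883 with DESeq2, 4266 with limma-voom, 775 with a replicate block and 1900 to 3740 with 1 library left out. From FT to MN, 25 genes became 894 with DESeq2, 9 with limma-voom, 0 with the block, 1 with only the 2 groups in the fit, 0 with the term for GC-shifted libraries, 102 without the 2 libraries with fewer than 35000000 counts and 5 to 78 with 1 left out. From FT to CRV, DESeq2 called 125 in place of 0 (819 at an unadjusted p under 0.05 by edgeR). From MN to CRV, 34 became 732, 30 (limma-voom), 2 (block), 22 (2 groups), 1 (GC term), 117 and 6 to 73. For any stage, 16 became 358 (DESeq2), 0 (block), 5 (GC correction), 0 (GC term) and 1 to 23 with 1 left out. The causes were not tested.

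Among the 7 genes, changes of sign affected uncalled estimates. Maob between populations was -0.17 with limma-voom. From FT to MN, Th was 0.086 with limma-voom, 0.026 with the block and 0.17 with GC correction, and Maoa -0.030 with GC correction; the GC term gave -0.12 for Ddc, -0.42 for Slc18a2, -0.31 for Maoa and -0.17 for Maob. From MN to CRV the GC term gave 0.32 for Slc18a2 and 0.25 for Maob, and Slc6a3 was -0.070 with GC correction and -0.11 without the 2 smallest libraries. With 1 library left out, signs turned within -0.39 to 0.29 for Th and -0.39 to 0.024 for Slc6a3 (FT to MN), -0.55 to 0.18 for Gch1, -0.25 to 0.053 for Slc18a2, -0.33 to 0.061 for Slc6a3 and -0.15 to 0.39 for Maob (FT to CRV), and -0.11 to 0.19 for Slc6a3 (MN to CRV).

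The labels give DA and nDA libraries of food-trained mice the same replicate numbers. Whether same-numbered libraries came from the same pooled mice was not tested, and the main fits treated libraries as unpaired. Over all comparisons, deviations of same-numbered libraries correlated weakly, at -0.066 to 0.069. Between DA and nDA libraries all 4 same-numbered pairs were positive (0.022 to 0.069), and pairs of unlike number ran from -0.046 to 0.040. DA replicate 4 correlated as much with nDA replicate 1 (0.040) as with nDA replicate 4. The replicate block left 5 of the 7 genes called between populations and none between stages. With 3 or 4 libraries a group, intervals of the 7 genes between stages span about 1.1 to 2.5 log2 units; what part sampling of RNA molecules has in this spread was not tested, as reads carry no molecular identifiers.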
